A study of Homo sapiens with 12 samples.

Results

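Of the 12 samples in the series, 6 were compared here: the 3 labelled miR10b NOdoxy against the 3 labelled miR10a NOdoxy, chosen by their labels alone. All 12 came from H9, an established human embryonic stem cell (hESC) line, transduced at a multiplicity of infection of 50 with a lentiviral vector that carries miR10a-GFP or miR10b-GFP under a Tet-regulated promoter. After expansion on mouse feeder cells the cultures went through 14 days of neural induction and were patterned towards ventral midbrain with the GSK3 inhibitor CT and 200 ng/ml SHH, and polyadenylated RNA was sequenced. The 6 NOdoxy samples received no doxycycline, so neither vector was induced. The other 6 had doxycycline at 2 µg/ml from day 11 to day 14. The question was how far the transduced cultures already differed in regional and lineage genes before either miRNA was induced.

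In the ventral neural tube, SHH from the notochord and floor plate directs midline progenitors to a floor plate fate, marked by FOXA2, and progenitors further from the source to lateral fates marked by factors such as NKX2-2 and IRX3. The midbrain floor plate also expresses LMX1A and CORIN and gives rise to dopaminergic neurons. WNT signalling, mimicked by a GSK3 inhibitor, sets the position along the forebrain to hindbrain axis.

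The vectors encode hairpins of the miR-10 family, which lies in the HOX clusters. The mature strands of these hairpins found in the RefSeq miRNA table (GRCh38.p14) are shown, with the seed (bases 2 to 8) in capitals. The miR-10a strands map to the minus strand of chromosome 17, with miR-10a-5p at chr17:48579904-48579926, and miR-10b-3p maps to the plus strand of chromosome 2 at chr2:176150368-176150389. The sequence of miR-10b-5p was not used here.
hsa-miR-10a-5p: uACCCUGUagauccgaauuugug
hsa-miR-10a-3p: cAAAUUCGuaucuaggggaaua
hsa-miR-10b-3p: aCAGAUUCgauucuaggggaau
The 3p seeds printed here differ from each other.

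Vector and transduced culture cannot be told apart in this design, because each vector was carried by its own culture and no GFP-only culture was analysed here. The labels do not say that replicates were separate transductions or cultures, so the p-values below measure only the spread between these samples, which may be technical. Total counts ranged from 12443157 to 14165426 in the miR10a and from 12589750 to 13499811 in the miR10b samples, and 3 counts, taken as the detection floor, corresponded to 0.212 to 0.241 CPM, where CPM is a count divided by its sample total and scaled to a common total. Among the doxycycline samples, miR10b replicate 2 stood apart, with a chi-square per degree of freedom of 3.16 and 4.10 against the others of its group, where pairs of uninduced replicates gave 1.23 to 1.93. In a principal component analysis of all 12 samples, the first component (34.9% of the variance) separated the 6 miR10a from the 6 miR10b samples. Reads shared between transcripts appear not to have been counted, since 92.8% of the counts fell on genes with 1 transcript, so a low value of a gene with several transcripts is not informative.

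The precursor rows were read first, as a check of the labels. MIR10A had 17, 14 and 8 counts in the miR10a samples and 1, 0 and 1 in the miR10b samples, a ratio of 19.7 (95% interval 5.09 to 168, counting error only). MIR10B had 56, 39 and 44 counts in the miR10b samples and 6, 13 and 13 in the miR10a samples, a ratio of 4.31 (95% interval 2.92 to 6.54). Each precursor was therefore higher in the culture that carried it even without doxycycline. These levels were 0.138% and 0.135% of the means with doxycycline, 724 CPM for MIR10A and 2620 CPM for MIR10B. Reads of the vector and of the endogenous gene cannot be told apart, and precursor reads do not measure the mature miRNA.

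The uninduced cultures differed in many genes, mostly by a small amount. Of 11451 genes tested with edgeR's quasi-likelihood test, 1618 (14.1%) passed an adjusted p of 0.05, of which 848 (7.41% of those tested) were higher and 770 (6.72%) lower in miR10b. The median size of these differences was 0.27 on the log2 scale, and 110 genes exceeded 1 (70 higher and 40 lower). All log2 differences below are miR10b minus miR10a, and the median over all tested genes was -0.01. In 3449 genes (30.1%) the 3 miR10b samples did not overlap with the 3 miR10a samples, and 1581 of the 1618 called genes were among them. With 3 against 3 samples an exact permutation test cannot go below 0.1. Counts of called list members below stand against the 7.41% higher and 6.72% lower, and groups that lie apart against the 30.1%. Only 29 called genes had a mean of 10 counts or less in their lower group, among them RAX, DLX5, FOXC2 and MIR10A.

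The labelled tissue was checked against its markers. SOX2, NES and VIM, which mark neural progenitors, stood at means of 1070, 4590 and 4250 CPM in miR10a and 1170, 5160 and 4840 CPM in miR10b. The floor plate markers FOXA2, CORIN and LMX1A were all detected, as was the midbrain factor EN1. OTX2 has 7 transcripts and stood at 0.804, 0.565 and 0.721 CPM in miR10a and 0.318, 0.444 and 0.301 CPM in miR10b. It was thus lower in miR10b without overlap, but on only 4 to 10 counts per sample, too few to be tested. LMX1B was not tested either. POU5F1 and NANOG were at or below 0.16 CPM, but both also have several transcripts.

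Floor plate genes were the regional group that was higher in miR10b. Of 25 listed genes 20 were tested, 12 (60.0%) were higher and 0 lower, against 7.41% and 6.72% of all tested genes, and the median difference was 0.38. The summed level of the 25 genes was 5320 to 5440 CPM in miR10a and 7480 to 7540 CPM in miR10b. Since these are bulk samples, more floor plate cells and more RNA per cell cannot be told apart.

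CORIN, a transmembrane protease used as a surface marker of floor plate progenitors, had the largest difference of the list. CORIN has 3 transcripts and is given by its most counted one. It stood at 6.43, 8.05 and 6.81 CPM in miR10a and at 20.7, 23 and 21.6 CPM in miR10b, a log2 difference of 1.61 (SE 0.10, adjusted p = 2.3e-15). The lowest miR10b sample was thus far above the highest miR10a sample. FERD3L, a bHLH factor of the midbrain floor plate, was at 50.0, 50.2 and 49.9 CPM against 101, 101 and 103 CPM (1.02, SE 0.05, adjusted p = 4.5e-19). For FERD3L the spread within each culture was a small part of the difference.

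LMX1A, which specifies midbrain dopaminergic progenitors, was higher in miR10b. Its values were 2.49, 2.68 and 3.61 CPM in miR10a and 5.40, 6.15 and 6.09 CPM in miR10b (log2 difference 1.01, SE 0.17, adjusted p = 3.4e-05). Since LMX1A and FOXA2 have 2 transcripts each, their low levels in both cultures are not informative. FOXA2, the floor plate determinant, stood at 6.11, 6.99 and 6.25 CPM against 8.18, 7.19 and 9.24 CPM. Its groups did not overlap, but the difference of 0.34 missed the threshold (adjusted p = 0.059). It passed without miR10b NOdoxy replicate 2, with a difference of 0.43 (adjusted p = 0.028). With a mean above 50 counts (0.046) and without miR10b doxy replicate 2 (0.049) it passed narrowly. In every other alternative, TMM factors and DESeq2 included, FOXA2 did not pass. FOXA1, its paralogue, is a gene with 1 transcript and rose from 409 ± 2.35 to 591 ± 16.2 CPM (SD, n = 3 each; adjusted p = 5e-16).

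Several secreted products of the floor plate were also higher in miR10b. SHH itself stood at 559, 559 and 561 CPM in miR10a and 615, 626 and 636 CPM in miR10b (log2 difference 0.16, SE 0.03, adjusted p = 0.00016). NTN1, the commissural axon attractant netrin-1, was at 1640 ± 31.2 against 2330 ± 16.5 CPM (0.51), and SPON1, the extracellular matrix protein F-spondin, at 802 ± 7.11 against 1170 ± 30.6 CPM (0.54). Each of these groups lay apart from the other. SLIT1, a midline repellent (0.36), WNT5A (0.37) and the WNT agonist RSPO2 (0.39) were also higher, as was the calcium-binding protein CALB1 (0.84). MSX1, NR4A2, PITX3, NEUROG2, MSX2, DKK3 and SULF2 did not pass, with differences from -0.15 to 0.57.

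**Figure D1:**
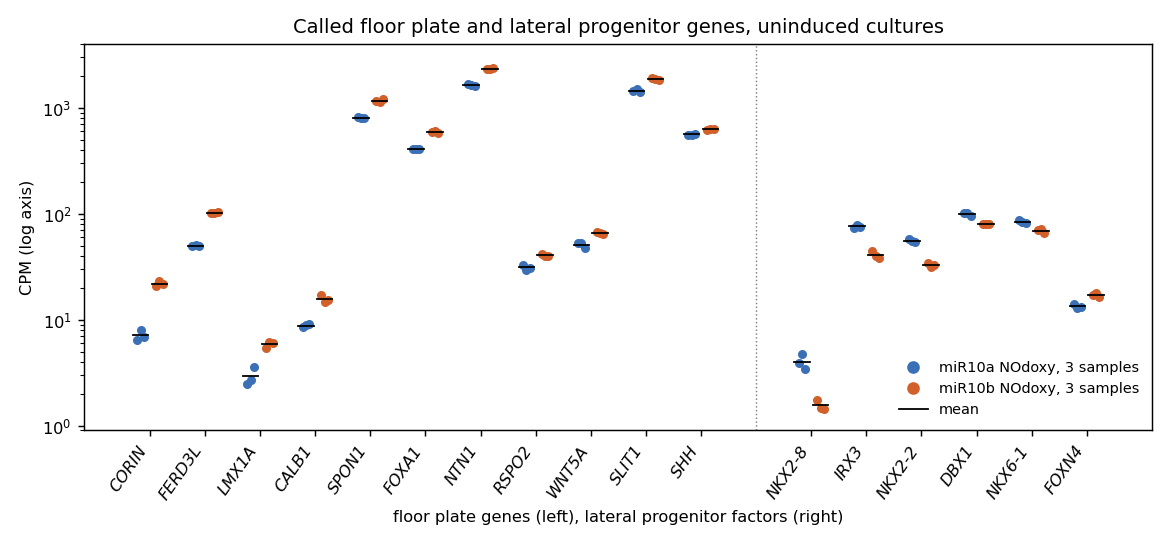
CPM per sample on a log axis for 11 floor plate genes (left) and 6 lateral progenitor factors (right) that passed an adjusted p of 0.05; blue points are the 3 miR10a NOdoxy samples, orange points the 3 miR10b NOdoxy samples, and black lines the means. All 11 floor plate genes shown were higher in miR10b, whereas 5 of the 6 lateral factors shown were lower, NKX2-8 most (log2 difference -1.38).

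Lateral progenitor factors were mixed. Of 23 listed genes 13 were tested, 2 were higher and 5 lower, and the median was -0.05. NKX2-2, which marks the progenitor domain flanking the floor plate, stood at 58.2, 54.9 and 54.0 CPM in miR10a and 34.5, 31.7 and 32.8 CPM in miR10b (log2 difference -0.75, SE 0.06, adjusted p = 3.5e-13). NKX2-8, a related homeobox factor, was at 3.86, 4.73 and 3.45 CPM against 1.75, 1.48 and 1.43 CPM (-1.38, SE 0.21, adjusted p = 4.7e-06). IRX3, which marks more dorsal progenitors, was at 73.7, 78.6 and 75.6 CPM against 44.8, 40.1 and 38.5 CPM (-0.89, SE 0.06, adjusted p = 9.9e-14). In all of these the highest miR10b sample lay below the lowest miR10a sample. NKX6-1 (-0.28) and DBX1 (-0.31) were lower by less. The forkhead factor FOXN4 was higher (0.35), and OLIG2 (0.04), NKX6-2 (0.08) and ISL1 (-0.28) did not pass.

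Genes of the SHH pathway did not follow the level of SHH itself. Of 15 tested, 4 were higher (SHH, FOXC2, and the ligand-releasing proteins DISP1 and SCUBE1) and 2 lower, with a median of -0.01. Of these, FOXC2 averaged 10 counts or less in miR10a. GLI2, a transcription factor that mediates the response to SHH, was at 24.7, 26.3 and 25.2 CPM in miR10a and 14.4, 11.5 and 10.9 CPM in miR10b (log2 difference -1.05, SE 0.09, adjusted p = 1.9e-11). The receptor and target gene PTCH1 (-0.26, adjusted p = 0.1), SMO (0.00) and GLI3 (-0.03) did not pass. GLI1 was not tested.

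Along the forebrain to hindbrain axis, each regional list held genes that differed in both directions. In the forebrain and eye field list 12 of 22 genes were tested, 5 were higher and 3 lower, with a median of -0.11. Among these calls RAX and DLX5 averaged 10 counts or less in their lower group. They reached the count filter through the culture where each was higher, so no test is given for either. RAX had 9, 7 and 8 counts in miR10a and 17, 21 and 16 in miR10b. DLX5, also the lower call of the surface ectoderm list, had 14, 15 and 11 against 7, 6 and 6. FEZF2, a forebrain zinc finger factor, was at 5.67 ± 0.98 against 8.46 ± 0.90 CPM (0.57, adjusted p = 0.0026). Several other calls of low genes were lost when 1 library was left out or with DESeq2. NKX2-1 (0.94) had an adjusted p of 0.081 without miR10a NOdoxy replicate 3, 0.093 without miR10b NOdoxy replicate 3 and 0.083 with DESeq2. LMO3 (0.75) had 0.13 without miR10a NOdoxy replicate 2, 0.12 without miR10b NOdoxy replicate 2 and 0.061 with DESeq2. EMX2 (-0.90) failed without any of 4 libraries (0.11 to 0.21) and with DESeq2 (0.16).

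More diencephalic factors were lower than higher. All but 1 of the 17 listed were tested, and 2 were higher and 5 lower (median -0.11). SIM2, a bHLH-PAS factor, was at 204, 211 and 203 CPM in miR10a and 141, 126 and 140 CPM in miR10b (-0.60, SE 0.04, adjusted p = 4.9e-13). BARHL1 (-0.57) and BARHL2 (-0.50), homeobox factors of the caudal diencephalon and mammillary region, were also lower. POU4F1, found in sensory and habenular neurons, was at 2.49, 2.68 and 3.04 CPM against 5.88, 6.07 and 6.76 CPM (1.19, SE 0.16, adjusted p = 7.2e-07).

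Midbrain and isthmus factors also differed in both directions. Of 21 listed 14 were tested, 2 were higher and 5 lower (median -0.20). SP5, a direct target of WNT and beta-catenin signalling, was at 58.2, 52.9 and 54.5 CPM in miR10a and 20.4, 18.5 and 19.7 CPM in miR10b, a log2 difference of -1.50 (SE 0.07, adjusted p = 4e-19). It had the largest negative difference among non-overlapping called genes with a mean of at least 5 CPM. OTX1, a forebrain and midbrain homeobox factor, was at 3.70 ± 0.25 against 1.83 ± 0.18 CPM (-1.02, adjusted p = 0.00033). SPRY1 (-0.43) and SPRY2 (-0.31), feedback inhibitors of FGF signalling, were lower, while DUSP6 (0.19), another feedback inhibitor of that pathway, was higher.

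EN1, WNT1 and EN2 mark the midbrain and its boundary with the hindbrain. EN1 overlapped between cultures, at 87.2, 92.7 and 99.9 CPM against 105, 102 and 99.5 CPM (0.13, adjusted p = 0.052). It passed in several alternatives, for example without miR10a NOdoxy replicate 3, with a difference of 0.19 (adjusted p = 0.014). WNT1 was at 44.5, 44.6 and 40.0 CPM against 48.4, 46.3 and 45.8 CPM (0.12, adjusted p = 0.2). EN2 was at 5.30, 5.65 and 6.73 CPM against 6.83, 9.33 and 8.64 CPM (0.49, adjusted p = 0.013), and the call was lost without any one of 4 libraries: miR10a NOdoxy replicate 1 (0.078) or 2 (0.064), or miR10b NOdoxy replicate 2 (0.11) or 3 (0.059). FGF8 and PAX2, with several transcripts each, were listed at 0 in all 6 samples.

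Of 34 hindbrain factors only 9 were tested, 3 of them higher and 4 lower. GBX2, expressed on the caudal side of the midbrain-hindbrain boundary, was at 11.3, 12.8 and 11.3 CPM against 16.6, 18.4 and 15.7 CPM (0.52, SE 0.10, adjusted p = 0.00028). The cultures did not overlap. MEIS1 (-0.57), IRX2 (-0.54) and HOXA2 (-1.08) were lower, and PHOX2A (0.46) was higher. HOXA2, the only HOX gene of the list that was called, was low at 3.13, 2.40 and 2.56 CPM against 1.59, 1.26 and 0.977 CPM, and most other HOX genes did not reach the count filter.

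**Figure D2:**
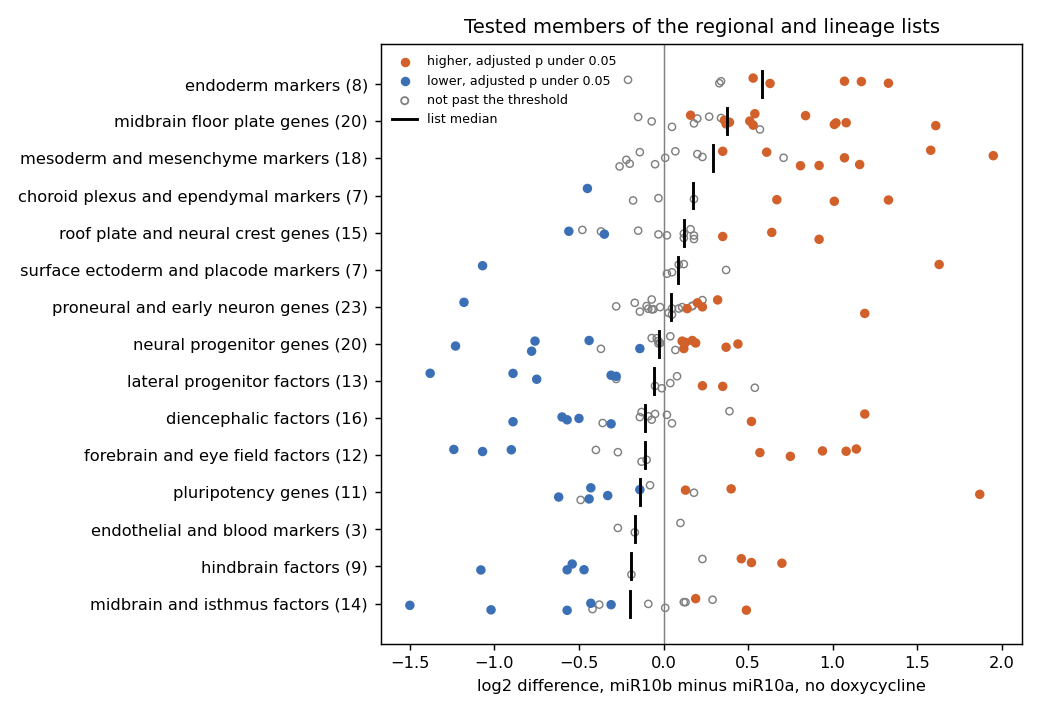
Each point is 1 tested gene of a regional or lineage list, placed by its log2 difference (miR10b minus miR10a, no doxycycline); filled orange and blue points passed an adjusted p of 0.05 as higher and lower, open grey points did not, black bars are list medians and the number tested is in parentheses. Floor plate (median 0.38), endoderm (0.58) and mesenchyme (0.29) lists held called genes on the higher side alone, while the axis lists held both.

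Roof plate and neural crest genes showed no common direction, with 3 of 15 tested higher and 2 lower (median 0.12). TWIST1, which is also a mesenchyme gene, rose from 49.4 ± 0.59 to 93.2 ± 2.76 CPM (0.92). ZIC1, a dorsal zinc finger factor, was at 4.25 ± 0.08 against 6.64 ± 0.72 CPM (0.64), and ZIC2 was lower (-0.35). NGFR, a neurotrophin receptor used as a crest marker, was at 221, 263 and 213 CPM against 157, 169 and 146 CPM (-0.56, SE 0.07, adjusted p = 2.7e-08). The crest markers SOX10, FOXD3 and TFAP2A stood at or below 1.20 CPM in every sample.

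Among neural progenitor genes, the SOXB1 factors SOX1 and SOX3 were lower in miR10b while SOX2 was slightly higher. SOX1, a marker of early neuroepithelium, was at 51.7, 50.6 and 54.2 CPM in miR10a and 24.2, 21.0 and 21.3 CPM in miR10b (log2 difference -1.23, SE 0.06, adjusted p = 1.5e-17). SOX3 was at 158, 161 and 151 CPM against 102, 89.8 and 86.5 CPM (-0.76, SE 0.05, adjusted p = 1e-15). SOX2 rose from 1070 ± 21.1 to 1170 ± 13.6 CPM (0.13, adjusted p = 0.0017). Over the list 7 of 20 tested genes were higher and 5 lower (median -0.03), the higher ones including NES (0.17), VIM (0.19) and the Notch effector HES1 (0.44).

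Several genes shared by pluripotent cells and early progenitors were lower. LIN28A, which blocks maturation of let-7 miRNAs, was at 1540 ± 34.8 against 1140 ± 12.9 CPM (-0.44, SE 0.03, adjusted p = 8.1e-15). LIN28B (-0.14), TRIM71 (-0.33), DPPA4 (-0.43) and the secreted WNT modulator SFRP2 (-0.62) were lower too, making up the 5 lower genes of 11 tested in the pluripotency list. The 3 higher genes were SOX2, KLF4 (0.40) and LEFTY1, a NODAL inhibitor, at 0.482, 0.988 and 0.881 CPM against 2.30, 3.19 and 3.23 CPM (1.87, adjusted p = 3.3e-06).

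Most neuronal genes did not differ beyond the threshold: of 23 tested, 5 were higher and 1 lower (median 0.05). NEFL (0.20), NEFM (0.14) and the vesicular glutamate transporter SLC17A6 (0.32) were higher. The lower gene, GAD1, makes GABA and stood at 5.79, 7.98 and 7.85 CPM against 3.10, 3.63 and 2.85 CPM (-1.18, SE 0.16, adjusted p = 4.2e-07). TAL2, a determinant of midbrain GABAergic neurons, was at 14.6, 13.1 and 13.7 CPM against 6.67, 6.37 and 7.59 CPM (-1.0, adjusted p = 3.1e-09). SLC32A1, the vesicular GABA transporter, was looked up after these values were seen. It was at 6.59, 7.62 and 6.89 CPM against 2.94, 2.07 and 1.43 CPM (-1.72, SE 0.18, adjusted p = 1.4e-09). Each of these 3 genes lay apart between the cultures, as 30.1% of all tested genes did. GAD2, the other GABA-synthesising enzyme, was also looked up, had too few counts to be tested and overlapped between the cultures, at 0.723, 0.353 and 0.721 CPM against 0.159, 0.148 and 0.601 CPM. The serotonin receptor HTR1D (-1.07) was also among the 12 genes with the largest negative differences.

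Several signalling genes were lower. Of 9 tested WNT ligands 2 were higher and 4 lower. WNT4 was at 52.7, 51.7 and 49.0 CPM against 26.5, 26.0 and 25.5 CPM (-0.98, SE 0.06, adjusted p = 2.2e-15), and the receptor FZD10 was at 37 ± 1.25 against 19.2 ± 0.54 CPM (-0.95). WNT7A (-0.56) and WNT8B (-0.42) were lower and WNT7B (0.57) higher. The call of WNT7B was lost without miR10b NOdoxy replicate 2 (0.50, adjusted p = 0.063). AXIN2, a general WNT target, differed by -0.12. CRABP1, a retinoic acid binding protein, was at 212, 215 and 206 CPM against 122, 114 and 114 CPM (-0.86, SE 0.04, adjusted p = 7.6e-19), while DHRS3, which reduces retinal, was higher (0.78), 2 of the 6 tested retinoic acid genes being higher and 1 lower.

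Notch genes split 5 higher to 4 lower among 16 tested. NOTCH2 rose from 495 ± 14.7 to 701 ± 4.16 CPM (0.50), and DLK1, a non-canonical Notch ligand, was at 335, 381 and 321 CPM against 176, 192 and 172 CPM (-0.94, SE 0.05, adjusted p = 3.2e-17). DLK1 is imprinted together with MEG3, which was at 3.43 ± 0.11 against 2.04 ± 0.47 CPM (-0.74, adjusted p = 0.0096). The MEG3 call was lost without miR10b NOdoxy replicate 1 (0.086) and with DESeq2 (0.059). PLAGL1, an imprinted zinc finger gene, was lower (-0.78) and H19 higher (0.56). Over all 25 tested imprinted genes 2 were higher and 3 lower, with a median of 0.01.

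Matrix and mesenchyme genes were among several further groups whose called genes were mostly higher in miR10b. In the mesoderm and mesenchyme list 18 of 34 genes were tested, 8 (44.4%) were higher and 0 lower (median 0.29), against 7.41% and 6.72% of all tested genes. The summed level was 290 to 294 CPM in miR10a and 511 to 531 CPM in miR10b. In the collagen and basement membrane list 15 of 27 tested (55.6%) were higher and 1 lower, FBN2 (-0.44). COL3A1, a fibrillar collagen, was at 35.1, 33.1 and 37.2 CPM against 131, 136 and 138 CPM (log2 difference 1.95, SE 0.05, adjusted p = 1.3e-26). TNC, the matrix protein tenascin-C, was at 22.5, 22 and 17.2 CPM against 95.2, 75.0 and 84.0 CPM (2.04, SE 0.09, adjusted p = 2e-19). It had the largest difference of all called, non-overlapping genes with a mean of at least 5 CPM.

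COL1A1, the main collagen of connective tissue, was at 46.5, 46.3 and 44 CPM against 107, 89.8 and 109 CPM (1.16). LUM, a proteoglycan of connective tissue, was at 11.3, 10.7 and 12.2 CPM against 22.7, 24.4 and 24.5 CPM (1.07), and the growth factor receptor PDGFRA at 10.8 ± 1.17 against 19 ± 0.73 CPM (0.81). COL12A1 (1.13), SPARC (0.61) and fibronectin FN1 (0.56) were higher as well. FOXC2 (1.58), one of the 8 higher genes of the mesenchyme list, had 9, 10 and 6 counts in miR10a against 26, 25 and 25 in miR10b. It thus reached the count filter through the miR10b samples. Other tested members of the mesenchyme list did not pass, among them COL1A2, the partner chain of COL1A1 (-0.22), TCF15 (-0.26), PRRX2 (-0.20), FOXC1 (-0.14), FOXD1 (-0.05) and the smooth muscle actin ACTA2 (0.01). DCN was at or below 0.0794 CPM and PRRX1 at or below 0.161 CPM in all 6 samples, but both have several transcripts, so that their low values are not informative. COL4A1 and COL4A2, basement membrane collagens, differed by -0.04 each and did not pass. Whether a small number of mesenchymal cells accounted for the higher genes was not tested.

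Genes that respond to TGF-beta, to YAP and TEAD and to serum were higher alongside. In the BMP and TGF-beta list 10 of 20 tested (50.0%) were higher and 0 lower (median 0.24), against 7.41% and 6.72% of all tested genes. The higher ones included TGFBI (1.54), the ligand TGFB1 (0.75), BMP6 (0.73), the BMP antagonist NOG (0.57) and ID4 (0.48). Of 11 YAP and TEAD target genes 5 (45.5%) were higher and 0 lower (median 0.22). CTGF was at 593, 592 and 588 CPM against 988, 992 and 1100 CPM (0.80, SE 0.04, adjusted p = 9e-19), CYR61 at 146 ± 2.71 against 226 ± 17.1 CPM (0.63), and ANKRD1 at 38, 42.4 and 33.5 CPM against 65.8, 64.4 and 72.6 CPM (0.83). In each of these 3 genes the cultures lay apart, as in 30.1% of all tested genes. Immediate early genes, which are induced within minutes by many stimuli, were higher in 8 of 14 tested and lower in 0 (median 0.41), with JUNB at 14.6 ± 0.49 against 24.8 ± 1.10 CPM (0.76) and EGR1 at 90.3 ± 10.3 against 135 ± 8.11 CPM (0.58).

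**Figure D3:**
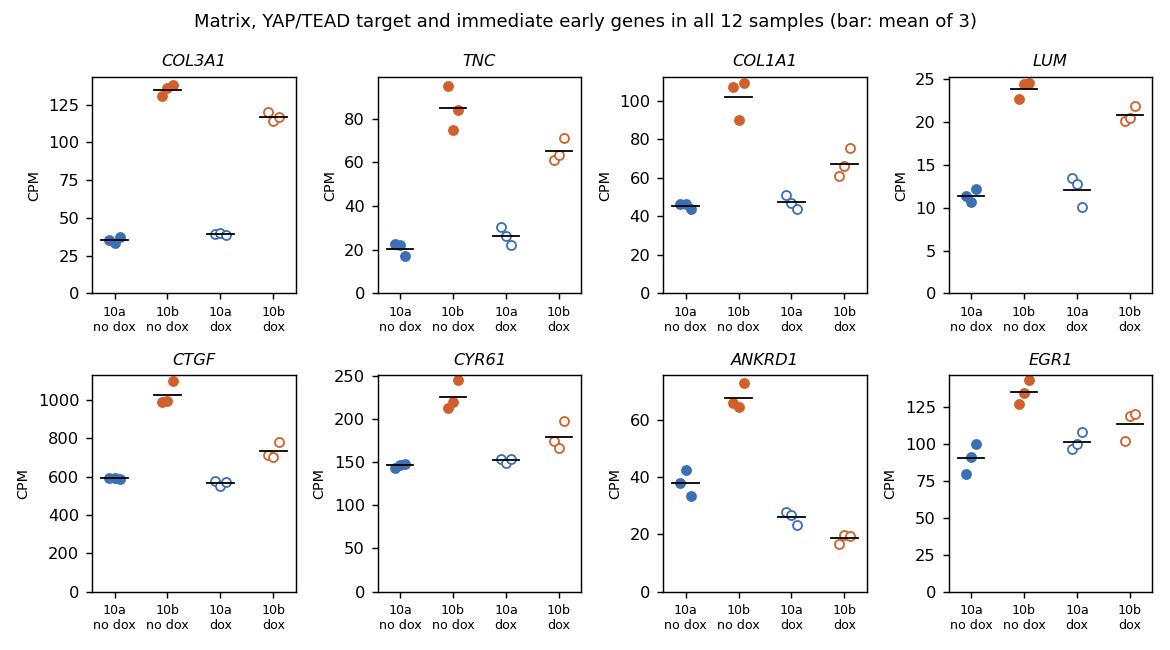
CPM per sample (linear axes from 0) of 4 matrix genes, 3 YAP and TEAD targets (CTGF, CYR61, ANKRD1) and the immediate early gene EGR1; filled points are samples without and open points samples with doxycycline, blue for miR10a and orange for miR10b, and bars are means of 3. Without doxycycline all 8 were higher in miR10b, whereas with doxycycline ANKRD1 was lower in miR10b (log2 difference -0.48).

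Genes listed as endoderm and choroid plexus markers were in part higher as well. Of 8 tested endoderm genes 5 (62.5%) were higher and 0 lower (median 0.58), against 7.41% and 6.72% of all tested genes. Of these 5, FOXA1 is also a floor plate gene and TTR also a choroid plexus gene. TTR, the transthyretin transporter, was at 4.42, 2.89 and 4.01 CPM against 9.21, 10.0 and 9.09 CPM (1.33, SE 0.14, adjusted p = 2.9e-09), and the apolipoprotein APOA1 at 1.98 ± 0.32 against 4.16 ± 0.18 CPM (1.07). SOX17 and AFP, endoderm genes with 1 transcript each, stood at or below 0.212 CPM. KCNJ13, a choroid plexus channel, was listed at 0, which is not informative for a gene with 3 transcripts. Of 7 tested choroid and ependymal genes 3 were higher and 1 lower (CLIC6, -0.45). FOXJ1, the regulator of motile cilia, which the floor plate also expresses, was at 105, 102 and 106 CPM against 165, 161 and 172 CPM (0.67, SE 0.04, adjusted p = 1e-15).

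Cilium genes were looked at after FOXJ1 was seen. Of 35 tested genes with symbols of the axonemal families, 13 (37.1%) were higher and 2 lower, with a median of 0.27. Of all tested genes 7.41% were higher and 6.72% lower. The outer arm dynein DNAH5 was at 14.1, 15.6 and 13.3 CPM against 21.5, 26.0 and 23.9 CPM (0.73, SE 0.09, adjusted p = 9.7e-08), and the cilium protein CFAP45 at 5.07 ± 0.68 against 10.5 ± 0.35 CPM (1.06). The groups of both genes lay apart, as did those of 30.1% of all tested genes.

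The growth, stress and remaining lists are given beside the 7.41% higher and 6.72% lower of all tested genes. Of 26 tested cell cycle genes 0 were higher and 2 lower, CCND1 (-0.28) and MCM5 (-0.10). The MCM5 call was lost with TMM factors (adjusted p = 0.052), DESeq2 (0.057) and no count filter (0.061), and without any 1 of the 6 uninduced samples (0.057 to 0.16). The proliferation marker MKI67 differed by 0.02. Of 61 ribosomal protein genes 0 were higher and 9 (14.8%) lower, all by 0.16 or less on the log2 scale (median of the list -0.06). Of the tested p53 targets 0 of 11 passed in either direction. The lists of cholesterol synthesis (1 higher, 0 lower of 18), ATF4 targets (1 higher, 3 lower of 14), hypoxia and glycolysis (3 and 1 of 21), interferon response (2 and 1 of 13), metallothioneins (0 and 1 of 3), surface ectoderm and placode (1 and 1 of 7), endothelium and blood (0 and 0 of 3) and adhesion and guidance (9 and 12 of 41) had few called genes or genes in both directions. Single genes of these lists differed by more, such as BHLHE40 (1.26, adjusted p = 0.0006), the metallothionein MT2A (-0.70, adjusted p = 0.00064) and the cystine transporter SLC7A11 (-0.54, adjusted p = 3.3e-11). SLC2A1, the glucose transporter GLUT1, was at 821, 866 and 832 CPM against 565, 574 and 547 CPM (-0.58, SE 0.03, adjusted p = 6.5e-17).

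The same contrast was then taken in the 6 doxycycline samples, which came from the same transduced cultures and also hold the effect of each induced miRNA. Their levels do not enter the uninduced difference. However, all 12 samples set its count filter and the spread behind its p-values, so the arms are not independent. There 2102 genes (18.4%) were called, 1024 (8.94%) higher and 1078 (9.41%) lower in miR10b. The arms shared 944 called genes, 58.3% of the uninduced and 44.9% of the doxycycline calls, and 935 of these had the same direction. Of the 1618 genes called without doxycycline, 1455 (89.9%) had the same sign with it, against 64.5% of all tested genes. Across the 11451 genes the log2 differences of the arms had a Pearson r of 0.48, given as a description since the arms share their cultures and genes are not independent.

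All of the 12 floor plate genes called without doxycycline except CALB1 were also called with it, whereas the lateral factors NKX6-1 and FOXN4 were not. Of the 20 tested floor plate genes 13 were higher and 0 lower (median 0.51), with CORIN at 1.13, FERD3L at 1.05, LMX1A at 0.89 and FOXA2 at 0.53 (adjusted p = 0.0021). NKX2-2 (-0.68), NKX2-8 (-1.86), IRX3 (-0.79), SP5 (-1.53), SOX1 (-1.20), GLI2 (-1.30) and GAD1 (-1.02) were again lower. In contrast 2 of the 14 immediate early genes were higher with doxycycline, where 8 had been without, and 4 of 11 YAP and TEAD targets were higher and 1 lower.

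The difference between the arms was tested by an interaction term, which shares the uninduced samples. It passed in 224 genes (1.96% of those tested) and in 109 (6.74%) of the 1618 called without doxycycline. Every interaction value includes miR10b doxy replicate 2, which stood apart, and the part of that sample in these values was not tested. ANKRD1 changed from 0.83 to -0.48 (interaction -1.31, adjusted p = 1.4e-09) and CTGF from 0.80 to 0.37. COL1A1 (1.16 to 0.51), TNC (2.04 to 1.31) and COL3A1 (1.95 to 1.57) also had a smaller difference with doxycycline, as did CALB1 (0.84 to 0.20). For CORIN the interaction was -0.49 and did not pass (adjusted p = 0.13), and for FERD3L it was 0.03.

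**Figure D4:**
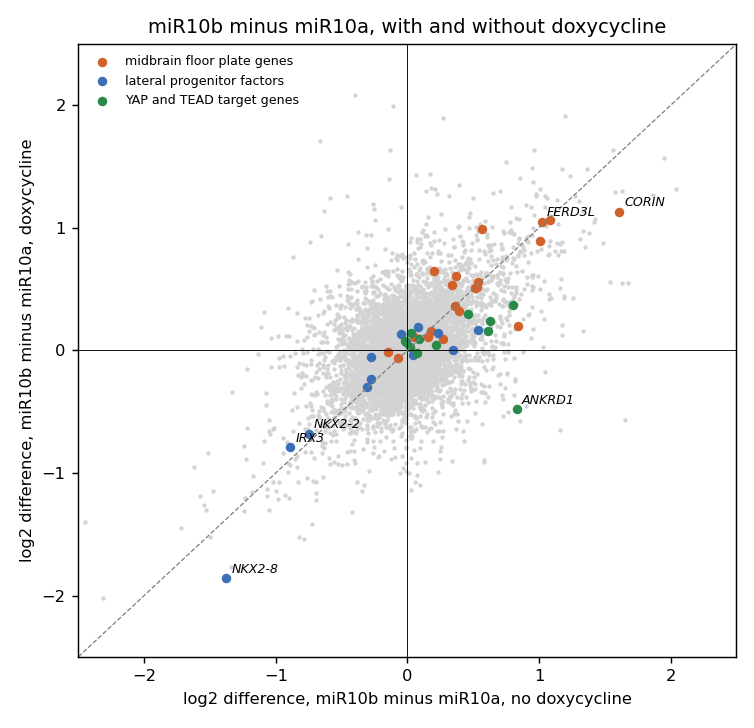
Log2 differences of miR10b minus miR10a without doxycycline (x axis) and with doxycycline (y axis) for all tested genes except the vectors' own precursors (grey), with floor plate genes in orange, lateral progenitor factors in blue and YAP and TEAD targets in green; the dashed line marks equal differences. CORIN (1.61 and 1.13) and FERD3L (1.02 and 1.05) lie to the upper right, NKX2-8 (-1.38 and -1.86) to the lower left, and ANKRD1 (0.83 and -0.48) below the horizontal axis.

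Positions from the GRCh37 annotation were available for 10223 tested genes (89.3%). Chromosome medians of the log2 difference ran from -0.04 to 0.01, and 9.94% to 20.91% of the genes of a chromosome were called, and every chromosome median lay close to that of all tested genes. Runs of at least 3 neighbouring tested genes called in the same direction numbered 16. In 3 of them every gene differed by more than 0.5. These included IRF8, FOXC2 and FOXL1 on chromosome 16 (0.92 to 1.58), where FOXC2 averaged 10 counts or less in miR10a. They also included a run of 4 genes on chromosome 3 at chr3:31699404-32411813 (GRCh37). The latter was picked after its values were seen, because CMTM8 and GPD1L were both among the 12 genes with the largest positive differences.

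The run held OSBPL10, an oxysterol-binding protein gene, ZNF860, a zinc finger gene, GPD1L, a glycerol-3-phosphate dehydrogenase-like gene, and CMTM8. GPD1L was at 32.8, 35.9 and 30.8 CPM in miR10a and 75.6, 74.7 and 75.3 CPM in miR10b (log2 difference 1.18, SE 0.06, adjusted p = 8.4e-18), and CMTM8 at 18.6, 17.7 and 17.9 CPM against 42.9, 43.3 and 44.6 CPM (1.27, SE 0.07, adjusted p = 2.9e-17). OSBPL10 (0.84) and ZNF860 (1.05), were higher as well, but they overlap each other on opposite strands and their reads cannot be told apart without knowing the strand setting. The nearest tested neighbours differed far less: STT3B by 0.03 and CMTM7 by 0.28, which both missed the threshold, and CMTM6 by 0.14 (adjusted p = 0.022). With doxycycline the 4 differences were 0.88, 1.26, 1.48 and 1.26 in the same order. Copy number and the vectors' insertion sites were not measured, so their part in this pattern was not tested.

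**Figure D5:**
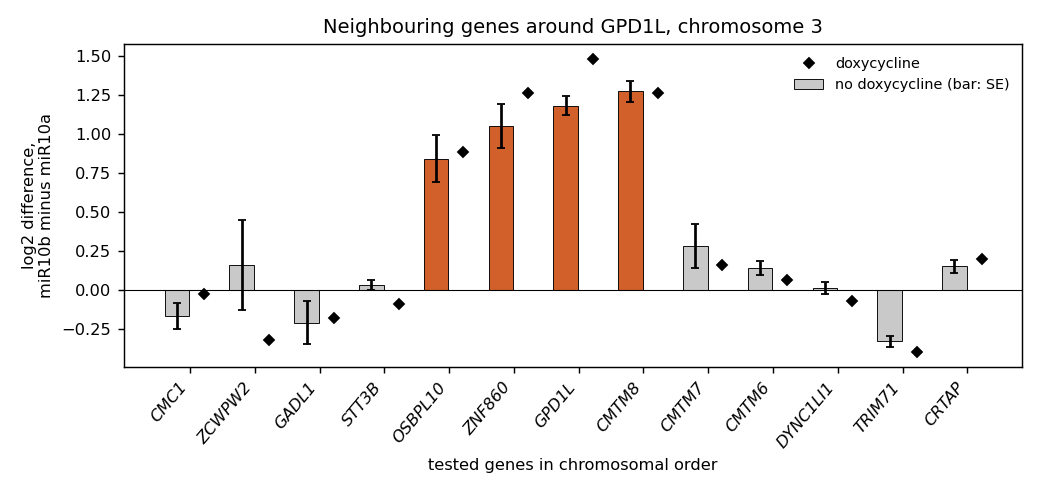
Log2 differences (miR10b minus miR10a) of 13 tested genes in chromosomal order around GPD1L; bars with SE are the samples without and diamonds those with doxycycline. The 4 orange bars, OSBPL10, ZNF860, GPD1L and CMTM8, lie between 0.84 and 1.27, and the bars of all other genes shown lie at 0.28 or lower.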

How the data were processed

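The authors sequenced 50-bp single-end polyadenylated RNA, mapped it to hg19 and counted reads on RefSeq transcripts. The submitters' processing notes name STAR, Subread and featureCounts, with no version, and the paper and the labels name different extraction and library kits. The deposited values are raw counts per transcript, 1 file of 51799 rows per sample. Here 3698 repeated rows were dropped, leaving 48101 transcripts of 25718 genes, and each of the 9509 genes with several transcripts was represented by its most counted transcript. CPM are counts scaled to the sample's total.

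The test was the quasi-likelihood F test of edgeR 4.0.16 (R 4.3.3), fitted once to all 12 samples with 4 group means, with total counts as library sizes and a Benjamini-Hochberg threshold of 0.05. Genes entered it if their counts averaged more than 10 per sample. The code was tested on simulated data. Whether replicate numbers pair the samples is not known, and they were not used in the main fit. Named genes were the vectors' precursors, fixed marker genes, called and non-overlapping members of regional or lineage lists that differed by over 0.5 (log2), the 12 largest differences in each direction at a mean of at least 5 CPM, and up to 4 called members of each other list. Members of these lists that are named beyond that, and those stated as such, were chosen after their values were seen. The comparison and all lists were chosen with earlier results of these data known. Alternatives were TMM factors, DESeq2 1.42.0, no filter, a mean above 50 counts, the 6 uninduced samples alone, a replicate block, counts summed over transcripts, and leaving out each replicate. Leaving out miR10b doxy replicate 2 was added after seeing the data. Some genes picked by the naming rule are not reported here.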

Additional observations from a re-analysis of the deposited data

Results flagged for a closer look

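For 17 of the genes named by rule, the difference between the cultures changed with doxycycline by the interaction test (edgeR, adjusted p under 0.05, log2 difference with doxycycline minus without). All of these values include miR10b doxy replicate 2, which stood apart. The vectors' own precursors changed most, MIR10A by -9.36 and MIR10B by 10.14, and both depend on the small counts without doxycycline. Genes of the YAP and TEAD, TGF-beta and immediate early lists had a smaller or reversed difference with doxycycline: ANKRD1 (-1.31), CTGF (-0.43), EGR1 (-0.42), CYR61 (-0.39), TGFB1 (-0.35) and JUN (-0.24). The matrix genes TNC (-0.72), COL1A1 (-0.65) and COL3A1 (-0.38) did as well, as did CALB1 (-0.64). The glycolysis and hypoxia genes BNIP3 (-0.32) and PGK1 (-0.18) were higher in miR10b without doxycycline and did not pass with it. SOX3 (-0.28) and LIN28A (-0.19) were lower in miR10b in both arms and further apart with doxycycline, and GPD1L (0.30) was higher in both and further apart with it.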

How the results depend on the processing

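The count of 1618 called genes stayed within 1.5 times of itself in every alternative: 1627 with TMM factors, 1234 with DESeq2, 1603 with no filter, 1548 with a mean above 50 counts, 1930 with the 6 uninduced samples alone, 1637 with counts summed over transcripts, 1231 to 1335 with 1 uninduced replicate left out, and 1990 without miR10b doxy replicate 2. With a replicate block it was 1689. After group means were removed, same-numbered uninduced miR10a and miR10b samples had correlations of -0.0468, -0.00288 and -0.0032. Because counting noise enters these deviations, such small values cannot show whether same-numbered samples shared a culture or a run. The doxycycline count of 2102 was 2101 with TMM factors, 1622 with DESeq2, 2184 with the replicate block and 1595 to 2082 with 1 doxycycline replicate left out. For the 127 tested named genes, 1640 of 1750 alternative values kept their direction and side of the threshold, 100 lost the call, 10 gained it and 0 reversed, over 24 genes.

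List counts moved in small lists. With DESeq2, forebrain genes were 2 higher and 1 lower, midbrain and isthmus 1 higher, SHH pathway 1 lower, WNT targets 1 higher, retinoic acid 1 higher, surface ectoderm 0 lower, choroid plexus 0 lower, cell cycle 1 lower, interferon response 1 higher and 0 lower, and imprinted genes 1 higher. With TMM factors, the SHH pathway had 1 lower, surface ectoderm 0 lower and the cell cycle 1 higher and 1 lower, and the highest chromosome median was 0.0143. LMO3 differed by 0.32 with counts summed over transcripts (adjusted p = 0.1). The cause of these changes was not tested.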

Other observations

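FGF19, a secreted growth factor on no list, was looked at after its values were seen. It stood at 1.77, 2.40 and 2.16 CPM in miR10a and 0.159, 0.519 and 0.451 CPM in miR10b without doxycycline. The miR10b values rest on 2, 7 and 6 counts, and the gene reached the count filter through the miR10a samples, so no test is given. F5, coagulation factor V, was at 9.97, 11.2 and 11.2 CPM against 29.0, 32.5 and 34.1 CPM (1.56), with 1.64 under doxycycline. The metalloprotease ADAMTS16 was at 10.7 ± 0.81 against 27.0 ± 0.65 CPM (1.33), the protease inhibitor A2M at 5.26 ± 0.32 against 13.5 ± 1.48 CPM (1.35) and the potassium channel subunit KCNMB1 at 3.52 ± 0.24 against 8.26 ± 0.73 CPM (1.23), and all 3 remained higher in miR10b with doxycycline (1.14, 0.84 and 1.42). The matrix gene MXRA5 was lower in miR10b, at 35.5, 41.7 and 32.4 CPM against 17.6, 19.2 and 16.5 CPM (-1.04), and so was the metalloprotease TLL2 (-0.99).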
